A study of Mus musculus with 6 samples.

Results

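Nuclear receptors are transcription factors, most of which bind small fat-soluble ligands and then change the transcription of the genes they sit on. The genes described here are 34 of the 22183 genes in a count table of mouse liver. They were chosen by symbol, as 32 nuclear receptor genes outside the Rev-erb pair together with 2 PGC1 coactivator genes. The rule used symbols and no measured value, but it was set with earlier results of these data known. The DOX group was 3 livers of mice with the genotype label BucheKI/KI-Hep and DDC treatment, in the sample group S2W-DOX. The PBS group was 3 livers with the same genotype label and the same DDC treatment, in the sample group S2W-PBS. The series describes Buche, butyrylcholinesterase (mouse symbol Bche), as overexpressed in the hepatocytes of these mice during a DDC model, so the knock-in and DDC are shared by both groups. The labels spell out neither S2W, DOX nor DDC, and give no age, dose or time, and there was no group without DDC or without the knock-in. The comparison asks what differs between DOX and PBS livers under DDC. The labels do not say whether replicates were separate animals, and p-values cover only the variation between the 6 samples, which may be technical.

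Many nuclear receptors act as pairs with a retinoid X receptor (RXR), and the partner decides which ligand is read: fatty acids by the PPARs, bile acids by FXR, oxysterols by the LXRs, drugs and other foreign compounds by CAR and PXR, thyroid hormone by the THRs and retinoic acid by the RARs. HNF4-alpha binds as a pair with itself and maintains hepatocyte identity. The PGC1 coactivators do not bind DNA but dock onto receptors such as PPAR-alpha and ERR-alpha. There they raise the transcription of genes for fat burning and mitochondria.

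Each library held between 32476725 and 40298256 counts in DOX livers and between 40592030 and 41921404 in PBS livers. All 34 genes were in the table and all 34 passed the filter on low counts, which left 14681 genes for testing. Levels are CPM, the count as a part of the library total after TMM scaling, which equalises the bulk of genes between libraries. Here "called" means a Benjamini-Hochberg adjusted p below 0.05 in the quasi-likelihood fit of edgeR over the 14681 genes. Bche itself averaged 1856 ± 87.7 CPM in DOX livers and 187 ± 16.5 CPM in PBS livers (SD, n = 3 each), a log2 fold change of 3.31 (SE 0.14, adjusted p = 1.65e-07). Over all genes tested, 27.5% were called, 13.5% higher and 14% lower in DOX, with a median log2 fold change of -0.01 over all genes tested. Hepatocyte markers were abundant in every library, with a summed level of 97304 to 116641 CPM in DOX livers and 89517 to 93165 CPM in PBS livers over 7 genes. These sums did not overlap between groups. Serpina1a, Serpina1b and Fgb, 3 of the 7 (42.9%), were called higher and 0 lower, against 13.5% and 14% of all genes. Log2 fold changes were positive for 5 hepatocyte markers and negative for 2. Alb, the largest part of the sum, was not called (log2 fold change 0.21, adjusted p = 0.376). Marker sums of other cell types did not overlap between groups for stellate cells with fibroblasts, endothelial cells, macrophages and lymphocytes, and overlapped for cholangiocytes and neutrophils. The 9 stellate cell and fibroblast markers summed to 819 to 1116 CPM in DOX and 1328 to 1601 CPM in PBS livers, and the 8 endothelial markers to 257 to 309 CPM in DOX and 212 to 243 CPM in PBS livers. The 8 macrophage markers summed to 970 to 1069 CPM in DOX and 841 to 907 CPM in PBS livers. Of these, 2 (25%), Marco and Vsig4, were called higher and 0 lower, against 13.5% and 14% of all genes. Their log2 fold changes were positive for 5 of the 8 macrophage markers and negative for 3. The 7 cholangiocyte markers summed to 541 to 777 CPM in DOX and 775 to 938 CPM in PBS livers. Lymphocyte markers stayed low, at 1.30 to 2.73 CPM in DOX and 4.31 to 6.33 CPM in PBS livers over 8 genes, and the 6 neutrophil markers summed to 28.7 to 73.7 CPM in DOX and 21.7 to 33.0 CPM in PBS livers, with Ly6g under 3 counts. Mitochondrially encoded genes held 5.11% to 6.81% of the counts in DOX and 3.45% to 4.58% in PBS livers. The part of these differences in the results below was not tested.

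Of the 34 receptor and coactivator genes, 7 were higher in DOX livers, 2 were lower and 25 were not called. The higher genes were Nr2c2, Thra, Nr2f6, Nr6a1, Hnf4a, Rxra and Ppargc1b, and the lower genes were Ppara and Nr1h3. The 9 called genes were 26.5% of the group, against 27.5% of all genes tested, so receptor genes were called at about the background rate. Higher calls made up 20.6% of the group, against 13.5% of all genes, and lower calls 5.88%, against 14%. The median log2 fold change of the group was 0.11, with 24 positive and 10 negative values. In 14 genes the DOX and PBS values did not overlap, 10 with DOX above PBS and 4 with DOX below. These were 41.2% of the group, against 44.1% of all genes tested. Ppara and Nr2c2 were the 2 genes whose call held in all 11 alternative analyses, and the other 7 calls were each lost in at least 1. The share of higher and lower calls also moved with the scaling. With library size alone, which shifted the median of all genes to -0.16, 2 of the 34 genes were higher and 6 lower, and among all genes 1028 were higher and 3429 lower. Leaving out DOX 3, PBS 1, PBS 2 or PBS 3 left 3 higher calls in each case. Lower calls came to 1 without DOX 3, PBS 2 or PBS 3. Because whole livers were sequenced, fewer cells of a type and less RNA per cell cannot be told apart in any of these values.

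**Figure D1:**
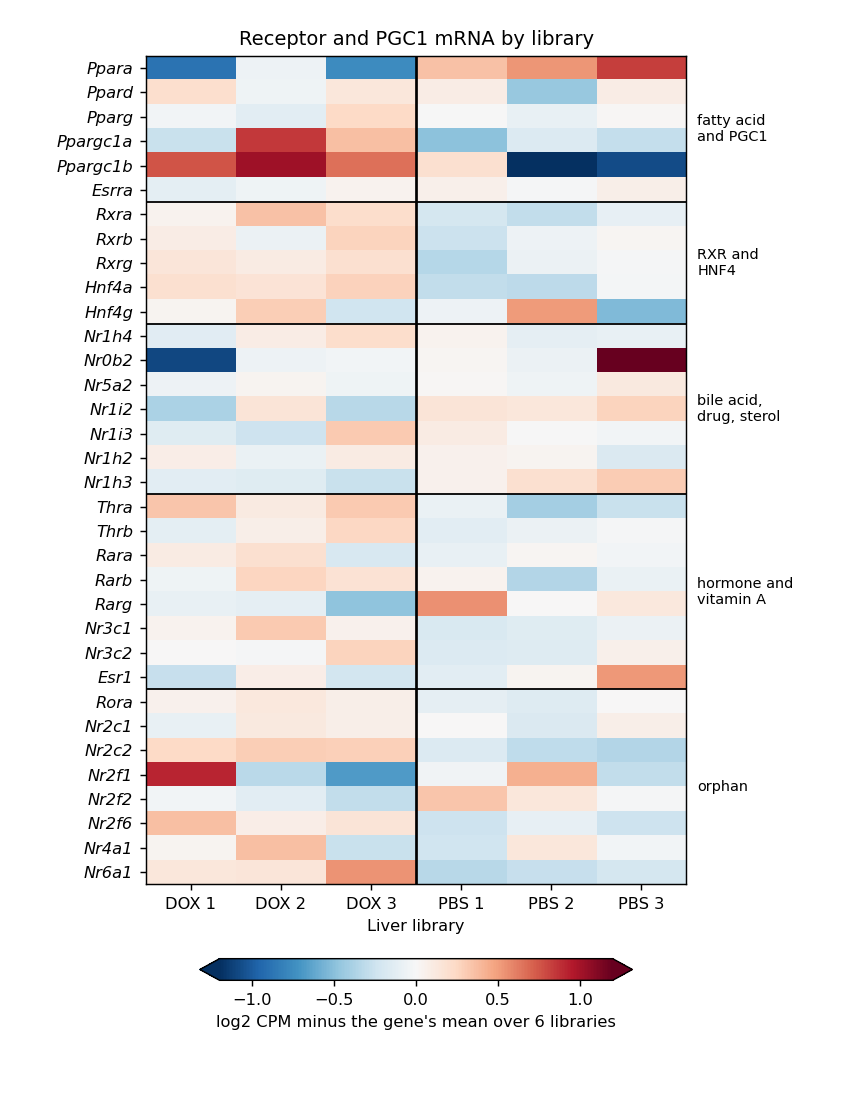
Each row is a receptor or PGC1 gene and each column a liver library, DOX left of PBS. Colour gives log2 CPM minus the gene's mean over the 6 libraries, red above and blue below, and rows are grouped by role. Ppara is blue or pale in the 3 DOX livers and red in the 3 PBS livers, and Ppargc1b and Nr2c2 show the reverse, except that Ppargc1b is pale red in PBS 1.

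Levels were compared between genes after division by gene length, as CPM per kilobase. Hnf4a was the most abundant transcript of the group, at 128 ± 5.55 CPM per kilobase in DOX livers and 95.9 ± 11.4 in PBS livers (SD, n = 3 each). Rxra was second in both groups, at 77.5 ± 8.18 in DOX and 58.5 ± 3.89 in PBS livers. The receptors for bile acids and foreign compounds came next. Nr1h4, which encodes FXR, stood at 36.4 ± 4.36 in DOX and 33.6 ± 1.95 in PBS livers, and Nr1i3, which encodes CAR, at 30.3 ± 6.59 in DOX and 30.8 ± 1.48 in PBS livers. Nr2f6, Nr1i2 (PXR) and Nr1h3 (LXR-alpha) had 28.0 ± 2.81, 27.6 ± 5.93 and 25.9 ± 1.31 CPM per kilobase in DOX livers, and in PBS livers 21.2 ± 1.25, 35.2 ± 1.76 and 33.3 ± 2.92. In DOX livers the ranges of Nr1h4, Nr1i3, Nr2f6, Nr1i2 and Nr1h3 overlapped in this order. Ranks 3 to 7 are therefore not separated by the spread between libraries. Ppara ranked 13 in DOX livers, at 8.69 ± 2.86 CPM per kilobase, and 9 in PBS livers, at 18.6 ± 3.17. Its range overlapped those of Nr5a2 and Pparg in DOX livers and of Esrra and Nr0b2 in PBS livers. The Ppara ranks are therefore not separated from their neighbours either. At the low end, Nr2f1 (COUP-TFI) had 0.229 ± 0.141 in DOX and 0.217 ± 0.0565 in PBS livers, and Hnf4g 0.0794 ± 0.0145 in DOX and 0.0789 ± 0.0283 in PBS livers. The deposited lengths enter these ranks, and Rora was given a length of 51763 bases, so its rank of 28 in both groups rests on that length.

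**Figure D2:**
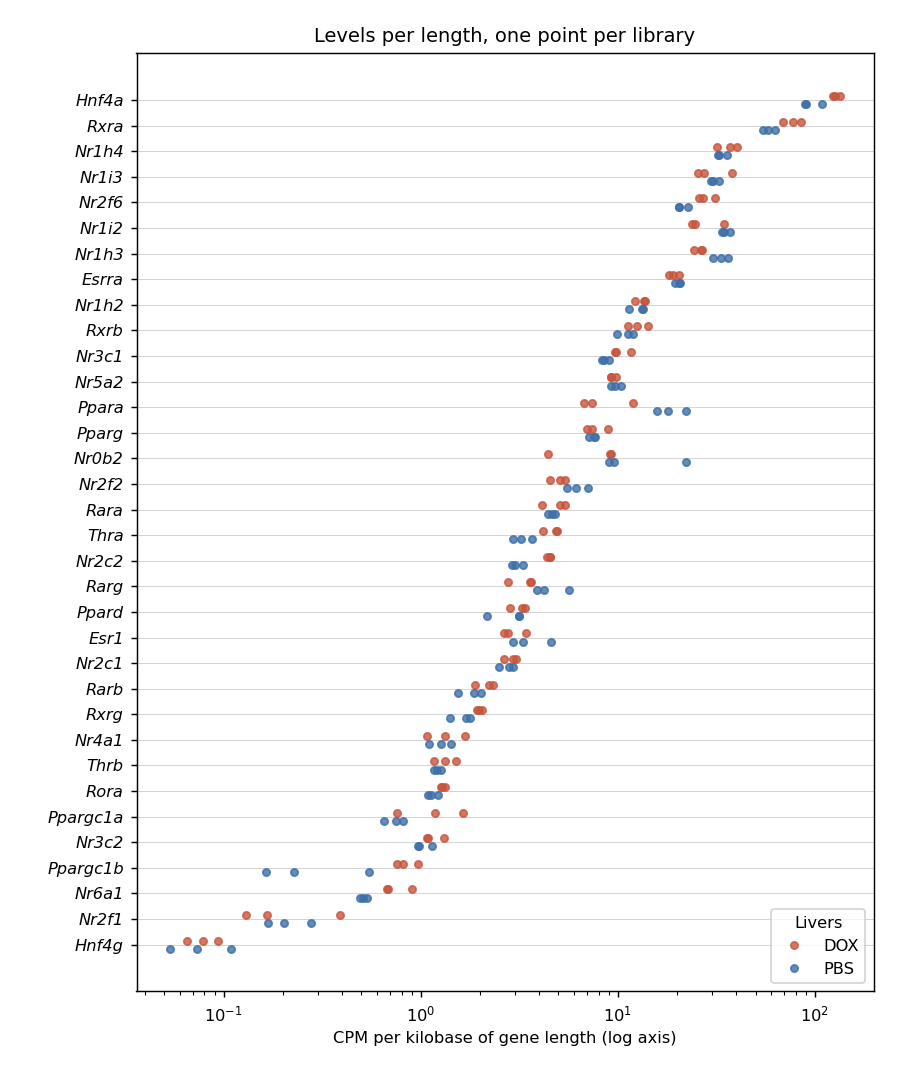
Points are single libraries, DOX in red above PBS in blue within each row, and the horizontal log axis gives CPM per kilobase of gene length. Genes run from Hnf4a, at 128 in DOX and 95.9 in PBS livers on average, down to Hnf4g, at 0.0794 in DOX and 0.0789 in PBS livers. The DOX points of Ppara lie clear of and below its PBS points.

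Fatty acid receptors and PGC1. Ppara, which encodes the receptor that turns on hepatic fatty acid oxidation in fasting, had 70.2, 125 and 76.9 CPM in DOX livers, against 165, 187 and 230 CPM in PBS livers. All 3 DOX values were below all 3 PBS values, and DOX 2 stood nearest to PBS. The gene was 2.14-fold lower in DOX, with a log2 fold change of -1.10 (SE 0.22, adjusted p = 0.0077), and its adjusted p was at most 0.0256 in every alternative run. It lies on chromosome 15, at chr15:85734910-85806851 of GRCm38. The related receptors did not pass the test. Ppard, expressed in many tissues, had 11.2, 9.37 and 10.7 CPM in DOX livers and 10.4, 7.10 and 10.3 CPM in PBS livers. Pparg, the receptor of fat cells, had 20.3, 19.1 and 24.5 CPM in DOX livers and 20.8, 19.6 and 21.0 CPM in PBS livers. Their log2 fold changes were 0.17 (95% interval -0.20 to 0.54, adjusted p = 0.493) and 0.06 (-0.21 to 0.32, adjusted p = 0.753), and the sign of Pparg changed to -0.10 with library size alone. Shares within a family do not depend on scaling between libraries. Per length, Ppara made up 38.4%, 55.0% and 37.7% of PPAR transcripts in DOX livers, against 59.6%, 65.9% and 67.2% in PBS livers. The groups did not overlap, and the two-sided exact permutation p of 0.1 is the lowest that 3 against 3 allows. This share and the other family shares below were chosen after the values were seen, so their permutation p-values are no independent support.

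The promoter of Ppara is shown because Ppara had the largest lower call of the group. The window is the 250 bases before a RefSeq start, chr15:85735526-85735775 on the plus strand of GRCm38.p6. It lies inside the gene span given above, so it is not upstream of the whole gene. Capitals mark GGGCGG, the GC box, on either strand.
Ppara: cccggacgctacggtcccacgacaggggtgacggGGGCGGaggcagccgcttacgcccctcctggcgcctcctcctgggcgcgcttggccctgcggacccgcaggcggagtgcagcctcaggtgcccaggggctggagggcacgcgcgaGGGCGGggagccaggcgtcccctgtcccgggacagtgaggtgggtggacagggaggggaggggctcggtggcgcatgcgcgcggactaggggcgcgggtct
The GC boxes begin 216 and 101 bases before the start, and 76.4% of the window is G or C. GGGCGG or its reverse complement occurred in 20 of 46 promoter windows of the receptor and PGC1 genes (43.5%). These windows cover 30 of the 34 genes. Thra, Ppargc1b, Nr3c1 and Hnf4g had no window and were not searched. Of 32851 windows of all genes, 32.7% held the GC box. The median share of G or C was 59.2% in the 46 windows and 52.4% in all windows. Windows of the same gene can overlap, as in Rara, so the same boxes can count in several windows. No AGGTCA, the hexamer that most nuclear receptors recognise, was in the Ppara window on either strand.

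The coactivator genes had low levels. Ppargc1b had 8.84, 10.6 and 8.29 CPM in DOX livers, against 5.97, 1.78 and 2.48 CPM in PBS livers. Every DOX value exceeded every PBS value, and PBS 1 stood well above the other PBS livers. The gene was 2.70-fold higher in DOX, with a log2 fold change of 1.44 (SE 0.40, adjusted p = 0.0331). This call was lost without DOX 1 (adjusted p = 0.0883), DOX 2 (0.0983), DOX 3 (0.0631) or PBS 3 (0.107), and without the filter on low counts (0.134), and the log2 fold change was 2.11 without PBS 1. Ppargc1a, the better known PGC1, had 9.92, 21.4 and 15.3 CPM in DOX livers and 8.50, 10.6 and 9.77 CPM in PBS livers. DOX 1 lay within the PBS range, and the log2 fold change of 0.69 (SE 0.24) had an adjusted p of 0.057. Without DOX 1 the adjusted p was 0.00717 and the log2 fold change 0.93, and DESeq2 gave an adjusted p of 0.017. Without DOX 2 the log2 fold change was 0.40 (adjusted p = 0.121), and the adjusted p reached 0.156 without PBS 1. Ppargc1b made up 42.7% ± 7.83 of PGC1 transcripts per length in DOX livers and 28.6% ± 15.2 in PBS livers (SD, n = 3 each, two-sided exact permutation p = 0.3). Esrra encodes ERR-alpha, the orphan receptor through which PGC1 acts on mitochondrial genes. Its level was 42.8, 44.7 and 47.7 CPM in DOX livers and 48.2, 46.0 and 48.7 CPM in PBS livers, a log2 fold change of -0.08 (95% interval -0.29 to 0.13, adjusted p = 0.573).

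RXR and HNF4. Rxra, the main RXR of hepatocytes, had 394, 487 and 444 CPM in DOX livers, against 331, 313 and 357 CPM in PBS livers. Rxra values of the groups stood apart, and it was 1.32-fold higher in DOX (log2 fold change 0.41, SE 0.12, adjusted p = 0.0303). The call was lost without DOX 3 (adjusted p = 0.0707), PBS 1 (0.102), PBS 2 (0.116) or PBS 3 (0.0506), and with library size alone (0.125). Rxrb and Rxrg were not called, at log2 fold changes of 0.19 (adjusted p = 0.248) and 0.28 (adjusted p = 0.271). Rxrb had 34.7, 31.0 and 39.2 CPM in DOX livers and 27.3, 31.3 and 33.1 CPM in PBS livers, with overlap. Rxrg, at 4.95, 4.80 and 5.11 CPM in DOX and 3.52, 4.27 and 4.43 CPM in PBS livers, did not overlap. Within the RXR family, Rxra held 84.0% ± 2.31 of RXR transcripts per length in DOX livers and 82.2% ± 1.45 in PBS livers (SD, n = 3 each, two-sided exact permutation p = 0.4).

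RXR transcripts were also set against those of their partners. The ratio of Rxra to Ppara per length was 10.3, 7.14 and 10.5 in DOX livers, against 3.66, 3.05 and 2.83 in PBS livers. Summed over the 3 RXR genes and 13 partner receptor genes, RXR to partners was 0.531, 0.566 and 0.534 in DOX livers and 0.364, 0.367 and 0.391 in PBS livers. Leaving Ppara out of the partners gave 0.573 ± 0.0300 in DOX and 0.415 ± 0.0227 in PBS livers (SD, n = 3 each). None of these ratios overlapped between groups. The ratios were chosen after the values were seen, with Rxra called higher and Ppara called lower, so no test is given for them. They describe messenger RNA and say nothing of the amounts of receptor protein.

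The second RefSeq start of Rxra is shown because its window holds a pair of AGGTCA hexamers. It spans chr2:27709042-27709291 on the plus strand of GRCm38.p6, and capitals mark AGGTCA on either strand.
Rxra: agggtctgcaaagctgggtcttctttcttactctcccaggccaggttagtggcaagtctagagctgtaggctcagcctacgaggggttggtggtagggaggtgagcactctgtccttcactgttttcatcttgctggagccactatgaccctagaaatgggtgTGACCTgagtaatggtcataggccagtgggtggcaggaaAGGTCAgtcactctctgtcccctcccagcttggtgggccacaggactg
The hexamers begin 87 and 48 bases before the start. AGGTCA occurred in 9 of the 46 windows (19.6%), in Nr1h4, Nr5a2, Nr6a1, Pparg, Rarg, Rxra, Rxrg and Thrb, and in 14.0% of the windows of all genes. A direct repeat of AGGTCA with a spacer of 1 base, searched on both strands and the arrangement read by RXR with PPAR and by HNF4-alpha, was in 0 of the 46 windows and in 0.0335% of all windows. A further motif, CACGTG, the E-box read by clock factors, was in 4 of the 46 windows (8.70%) and in 6.02% of all windows.

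Hnf4a, which encodes the receptor that maintains hepatocyte gene expression, had 592, 582 and 632 CPM in DOX livers, against 423, 417 and 513 CPM in PBS livers. All DOX values exceeded all PBS values, and the gene was 1.33-fold higher in DOX (log2 fold change 0.42, SE 0.13, adjusted p = 0.0292). The call was lost without DOX 1 (adjusted p = 0.0633), DOX 3 (0.0842), PBS 1 (0.125) or PBS 2 (0.117), and with library size alone (0.111). Hnf4g, the form found mainly in gut and kidney, had 13, 14 and 9 counts in DOX libraries and 14, 21 and 10 counts in PBS libraries. Its log2 fold change was 0.01 (adjusted p = 0.991), and the 95% interval of -1.06 to 1.07 does not exclude a doubling or a halving.

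**Figure D3:**
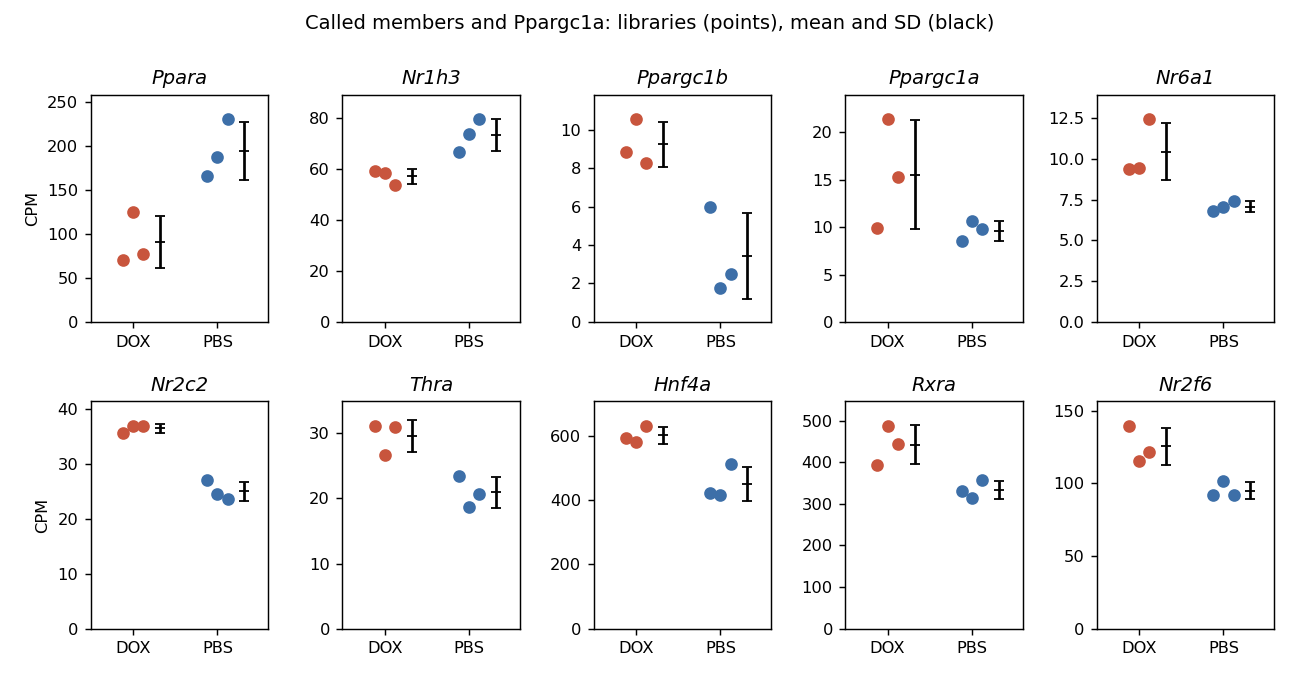
Points are single libraries in CPM, DOX left of PBS in each panel, with the mean and SD of 3 libraries in black, for the 9 called genes and Ppargc1a. DOX and PBS points do not overlap for the 9 called genes, while for Ppargc1a the DOX 1 point of 9.92 CPM lies within the PBS range of 8.50 to 10.6 CPM.

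Bile acid, drug and sterol sensors. Of these 7 genes, 1 was lower and 6 were not called, a share near the 14% of all genes called lower. Nr1h3 encodes LXR-alpha, the oxysterol receptor that controls cholesterol export and fat synthesis. It had 59.3, 58.3 and 53.9 CPM in DOX livers, against 66.8, 73.7 and 79.7 CPM in PBS livers. Every DOX value was below every PBS value, and Nr1h3 was 1.28-fold lower in DOX (log2 fold change -0.36, SE 0.10, adjusted p = 0.0227). The call was lost without DOX 3 (adjusted p = 0.0842), PBS 2 (0.0691) or PBS 3 (0.0957). Nr1h2 encodes LXR-beta, the form found in most tissues. It had 49.9, 44.8 and 50.5 CPM in DOX livers and 49.1, 48.4 and 41.9 CPM in PBS livers, a log2 fold change of 0.06 (adjusted p = 0.714) that was -0.10 with library size alone. Nr1h3 made up 66.2% ± 2.24 of LXR transcripts per length in DOX livers and 72.3% ± 3.37 in PBS livers (SD, n = 3 each, two-sided exact permutation p = 0.1, the lowest possible).

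The genes for the bile acid receptor FXR, for SHP and for LRH-1 were not called. Nr1h4 had 81.5, 95.01 and 104 CPM in DOX livers and 92.1, 82.9 and 84.0 CPM in PBS livers, with a log2 fold change of 0.11 (95% interval -0.13 to 0.36, adjusted p = 0.476) that was -0.04 with library size alone. Nr0b2 encodes SHP, a receptor without a DNA-binding domain that FXR induces to switch off bile acid synthesis. It had 5.69, 11.6 and 11.8 CPM in DOX livers and 12.3, 11.5 and 28.4 CPM in PBS livers. DOX 1 was low and PBS 3 high, and the log2 fold change of -0.84 (SE 0.47) had an adjusted p of 0.243. It was -0.57 without DOX 1 (adjusted p = 0.452) and -0.30 without PBS 3 (0.502). Nr5a2, which encodes LRH-1, the receptor that SHP inhibits, had 46.6, 49.8 and 46.9 CPM in DOX livers and 48.9, 46.9 and 52.7 CPM in PBS livers (log2 fold change -0.05, 95% interval -0.26 to 0.16, adjusted p = 0.721).

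The sensors of foreign compounds were not called either. Nr1i3 had 63.5, 58.9 and 87.2 CPM in DOX livers and 75.0, 69.9 and 68.5 CPM in PBS livers. DOX 3 was above and DOX 1 and DOX 2 below the PBS range, and the log2 fold change was -0.03 (95% interval -0.33 to 0.27, adjusted p = 0.906). The exons of Nr1i3 overlap those of Tomm40l on the other strand over 3304 bases in the GENCODE annotation of GRCm38. This exceeds the length of 2307 bases implied for Nr1i3 by the deposited values, so the overlap of the counted exons is not known. Tomm40l had a log2 fold change of -0.23 (adjusted p = 0.308). Nr1i2 had 64.2, 93.04 and 66.5 CPM in DOX livers and 93.2, 91.6 and 100.5 CPM in PBS livers. DOX 2 lay within the PBS range, and the log2 fold change of -0.35 (SE 0.14) had an adjusted p of 0.0784. Without DOX 2 the adjusted p was 0.00235, and with library size alone it was 0.0125, so Nr1i2 was lower in those analyses.

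Hormone and vitamin A receptors. Of these 8 genes, 1 was higher and 7 were not called, a share near the 13.5% of all genes called higher. Thra, which encodes a thyroid hormone receptor found in most tissues, had 31.1, 26.7 and 30.9 CPM in DOX livers, against 23.4, 18.7 and 20.6 CPM in PBS livers. No DOX value reached down to the PBS range, and Thra was 1.41-fold higher in DOX (log2 fold change 0.50, SE 0.12, adjusted p = 0.0108). The call was lost without PBS 2 (adjusted p = 0.0547) and with library size alone (0.0567). Exons of Thra overlap those of Nr1d1, which encodes the clock receptor Rev-erb-alpha on the other strand, over 263 bases, and Nr1d1 was also higher in DOX (log2 fold change 1.39, adjusted p = 0.0394), a call lost when any of 5 libraries was left out. How reads were counted by strand is not given in the sources used here, so reads in the shared bases cannot be assigned to either gene. Thrb, the main thyroid hormone receptor of hepatocytes, had 17.6, 20.0 and 22.7 CPM in DOX livers and 17.5, 18.2 and 18.9 CPM in PBS livers (log2 fold change 0.14, adjusted p = 0.421). That value was -0.01 with library size alone. Per length, Thra made up 77.6% ± 2.68 of THR transcripts in DOX livers and 72.8% ± 2.71 in PBS livers (SD, n = 3 each, two-sided exact permutation p = 0.2). This share rests on lengths of 6364 bases for Thra and 14960 bases for Thrb. Before division by length, Thra and Thrb averaged 29.6 and 20.1 CPM in DOX livers and 20.9 and 18.2 CPM in PBS livers. Whole livers were sequenced, so the share is not that of hepatocytes alone.

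None of the 3 retinoic acid receptor genes was called with TMM scaling and the filter on low counts. Rarg had the largest difference, with 12.1, 11.9 and 9.21 CPM in DOX livers and 18.7, 12.9 and 14.0 CPM in PBS livers. The groups did not overlap, with a log2 fold change of -0.46 (SE 0.17) and an adjusted p of 0.0611, which was 0.0172 with library size alone and 0.0196 without the filter on low counts. Rarg made up 32.1% ± 2.01 of RAR transcripts per length in DOX livers and 41.3% ± 4.67 in PBS livers (SD, n = 3 each, two-sided exact permutation p = 0.1, the lowest possible). Rara had 23.6, 25.3 and 19.3 CPM in DOX livers and 20.7, 22.5 and 21.7 CPM in PBS livers, a log2 fold change of 0.07 (adjusted p = 0.692) that was -0.09 with library size alone. Rarb, which retinoic acid itself induces, had 7.14, 8.84 and 8.35 CPM in DOX livers and 7.65, 5.82 and 7.03 CPM in PBS livers (log2 fold change 0.25, adjusted p = 0.285). Exons of Rarb and Top2b overlap on opposite strands over 1793 bases, and Top2b averaged 2213 counts with a log2 fold change of 0.35 (adjusted p = 0.022).

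Among steroid receptors, Nr3c1 encodes the glucocorticoid receptor. It had 84.8, 103 and 85.2 CPM in DOX livers, against 72.5, 74.3 and 78.7 CPM in PBS livers. The groups did not overlap, yet the log2 fold change of 0.27 (SE 0.11) had an adjusted p of 0.0759. Nr3c2, the mineralocorticoid receptor gene, had 9.79, 9.70 and 11.8 CPM in DOX livers and 8.73, 8.76 and 10.2 CPM in PBS livers (log2 fold change 0.17, adjusted p = 0.404). Esr1, which encodes oestrogen receptor alpha, had 23.2, 29.9 and 24.2 CPM in DOX livers and 25.9, 28.8 and 40.4 CPM in PBS livers. PBS 3 was high, and the log2 fold change of -0.30 (SE 0.17) had an adjusted p of 0.207, which was 0.0439 with library size alone.

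Orphan receptors. Of these 8 genes, 3 were higher and 5 were not called, against 13.5% of all genes called higher. Nr2c2 encodes TR4, an orphan receptor that binds direct repeats of AGGTCA. It had 35.6, 37.0 and 37.0 CPM in DOX livers, against 27.0, 24.6 and 23.7 CPM in PBS livers. The DOX values lay close together and above every PBS value. Nr2c2 was 1.46-fold higher in DOX (log2 fold change 0.54, SE 0.10, adjusted p = 0.00323), with an adjusted p of at most 0.0198 in every alternative run. The gene spans chr6:92091418-92173058 of GRCm38. Its exons overlap those of Mrps25 on the other strand over 4590 bases, and Mrps25 was lower in DOX (log2 fold change -0.53, adjusted p = 0.0152). Nr2c1, the closest relative of Nr2c2, had 13.6, 15.7 and 15.1 CPM in DOX livers and 14.4, 12.8 and 15.1 CPM in PBS livers, with a log2 fold change of 0.07 (adjusted p = 0.721) that was -0.09 with library size alone. Nr2c2 made up 60.9% ± 1.29 of NR2C transcripts per length in DOX livers and 52.8% ± 2.73 in PBS livers (SD, n = 3 each, two-sided exact permutation p = 0.1, the lowest possible).

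Nr2f6, or EAR2, is a COUP-TF relative that mostly represses transcription. It had 139.5, 115 and 121 CPM in DOX livers, against 91.8, 101 and 91.7 CPM in PBS livers. DOX values were all above PBS values, and Nr2f6 was 1.32-fold higher in DOX (log2 fold change 0.40, SE 0.11, adjusted p = 0.0183). The call was lost without DOX 1 (adjusted p = 0.0654), PBS 1 (0.0765) or PBS 3 (0.0682), and with library size alone (0.113). Nr2f6 exons overlap Ocel1 over 1622 bases on the other strand, and Ocel1 had a log2 fold change of -0.17 (adjusted p = 0.542). Nr2f2, or COUP-TFII, which is also strong in endothelial and mesenchymal cells, had 33.7, 31.7 and 28.2 CPM in DOX livers, against 43.6, 37.99 and 34.2 CPM in PBS livers. Its groups did not overlap, with a log2 fold change of -0.31 (SE 0.12) and an adjusted p of 0.0754, which was 0.0148 with library size alone. In the same DOX livers 4 of the 9 stellate and fibroblast markers (44.4%) were called lower and none higher, against 14% and 13.5% of all genes. Of these markers, 4 had positive and 5 negative log2 fold changes. Their lower sum rests on the collagen genes Col1a1 (87.5 ± 25.7 CPM in DOX and 241 ± 52.0 CPM in PBS livers) and Col3a1 (238 ± 63.1 CPM in DOX and 657 ± 60.8 CPM in PBS livers, SD, n = 3 each). Of the 8 endothelial markers, 4 (50%) were called higher and none lower, against 13.5% and 14% of all genes. The part of either list in Nr2f2 was not tested. Per length, Nr2f6 made up 84.2% ± 1.14 of NR2F transcripts in DOX livers and 76.7% ± 2.44 in PBS livers (SD, n = 3 each, two-sided exact permutation p = 0.1, the lowest possible). Nr2f1 was expressed at a low level, with 1.24, 0.530 and 0.413 CPM in DOX livers and 0.645, 0.890 and 0.539 CPM in PBS livers. Its log2 fold change of 0.09 (adjusted p = 0.908) was -0.08 with library size alone.

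Nr6a1 encodes GCNF, a repressor best known from germ cells and early embryos. It had 9.37, 9.46 and 12.4 CPM in DOX livers, against 6.77, 7.05 and 7.40 CPM in PBS livers. DOX values were above PBS values throughout, and Nr6a1 was 1.47-fold higher in DOX (log2 fold change 0.56, SE 0.16, adjusted p = 0.0216). The call was lost without DOX 3 (adjusted p = 0.0921), PBS 1 (0.0684), PBS 2 (0.0645) or PBS 3 (0.0513), and with library size alone (0.0864). One of its RefSeq promoter windows is shown, chr2:38784516-38784765 on the minus strand of GRCm38.p6. Among the called genes with a window, Nr6a1 and Rxra were those with AGGTCA, marked in capitals on either strand. The called genes Thra and Ppargc1b had no window and were not searched.
Nr6a1: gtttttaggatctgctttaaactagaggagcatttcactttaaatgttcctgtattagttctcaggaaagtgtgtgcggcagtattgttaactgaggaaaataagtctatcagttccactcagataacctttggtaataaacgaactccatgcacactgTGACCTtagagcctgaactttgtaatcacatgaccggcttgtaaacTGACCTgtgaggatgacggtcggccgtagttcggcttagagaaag
The hexamers begin 91 and 45 bases before the start. Rora encodes ROR-alpha, an activator of clock and lipid genes. It had 65.6, 69.1 and 66.2 CPM in DOX livers, against 58.6, 56.7 and 63.4 CPM in PBS livers, without overlap but at a log2 fold change of 0.17 and an adjusted p of 0.208. Nr4a1, an immediate early gene, had 6.70, 8.399 and 5.43 CPM in DOX livers and 5.55, 7.19 and 6.39 CPM in PBS livers (log2 fold change 0.10, adjusted p = 0.728), and that value was -0.06 with library size alone.

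**Figure D4:**
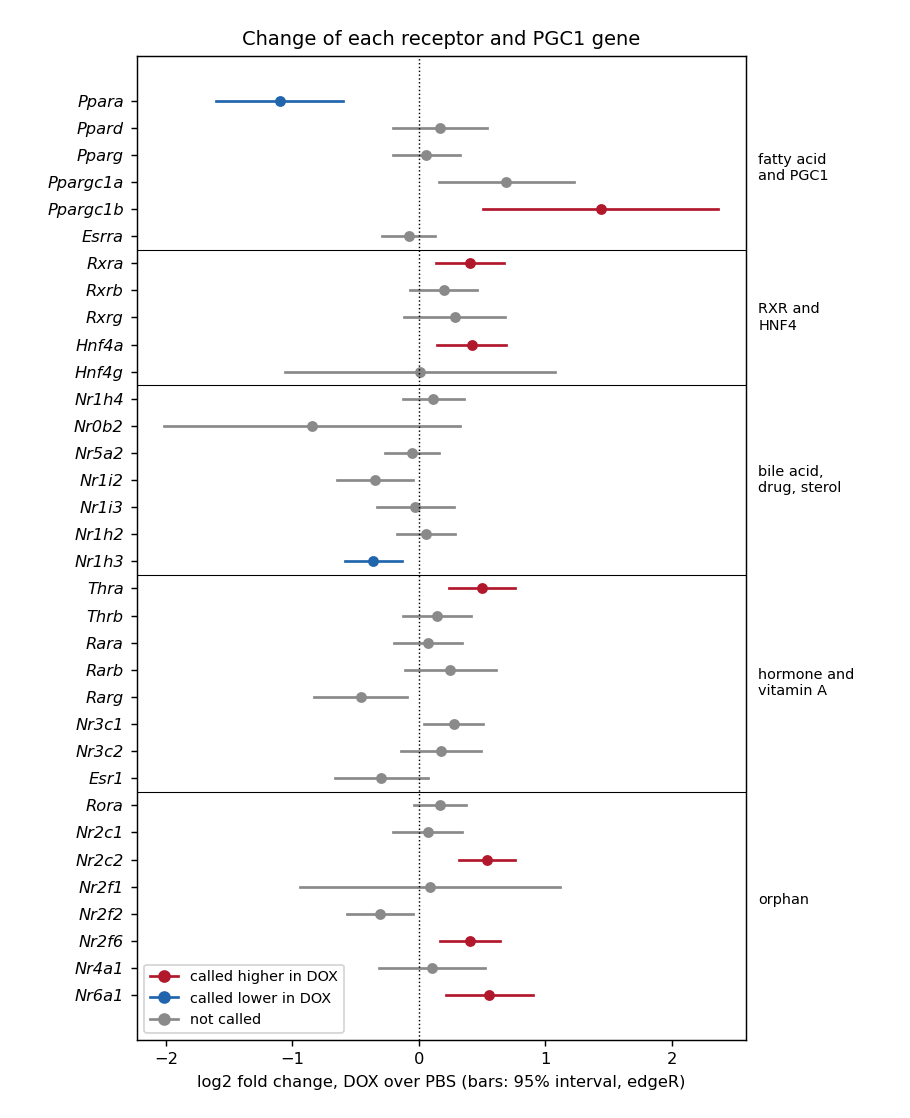
Points are log2 fold changes of DOX over PBS and bars their 95% intervals from edgeR, with 3 libraries per group, in the order of roles. Red marks genes called higher, blue genes called lower and grey genes not called. Ppara at -1.10 and Ppargc1b at 1.44 are the extremes. The wide bars belong to Hnf4g, Nr0b2, Nr2f1 and Ppargc1b, whose bar runs from 0.50 to 2.37.

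Spread between libraries differed among the genes. The median coefficient of variation was 11.5% in DOX livers and 9.04% in PBS livers. The most variable genes were Nr2f1 among DOX livers, at 61.7%, and Ppargc1b among PBS livers, at 65.7%.

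Genes that these receptors are known to control were read from lists of textbook targets, each beside its receptor. The lists here and below were chosen with earlier results of these data known, so their counts describe the listed genes only. PPAR-alpha targets, which serve fatty acid oxidation and transport, were mostly lower. Of 23 tested PPAR-alpha targets, 18 were lower in DOX, 0 higher and 5 not called, with a median log2 fold change of -1.07, against 14% of all genes called lower and a median of -0.01. Acot1, an acyl-CoA thioesterase, had 3.92, 6.63 and 5.68 CPM in DOX livers, against 56.8, 54.2 and 57.8 CPM in PBS livers (log2 fold change -3.38, adjusted p = 1.2e-06). Vnn1, which encodes pantetheinase, and Ehhadh, a peroxisomal oxidation enzyme, had log2 fold changes of -3.06 and -2.85 (adjusted p = 2.24e-06 and 4.36e-05). Between 15 and 20 of the targets were lower when any 1 library was left out, 23 with library size alone and 16 without the filter on low counts.

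CAR and PXR targets serve the clearance of foreign compounds. Of 16 tested targets, 8 (50%) were higher and 2 (12.5%) lower in DOX, against 13.5% and 14% of all genes, with a median log2 fold change of 0.45, against -0.01 for all genes. Cyp2b10, a cytochrome P450 that CAR induces, had 1286, 1039 and 1749 CPM in DOX livers, against 105, 59.5 and 95.8 CPM in PBS livers (log2 fold change 3.97, adjusted p = 5.59e-05). Sult1e1, an oestrogen sulfotransferase, had 175, 165 and 272 CPM in DOX livers, against 6.20, 2.74 and 4.12 CPM in PBS livers (log2 fold change 5.55, adjusted p = 0.000384). Slco1a4, an uptake transporter, had a log2 fold change of 0.82 (adjusted p = 0.00269). The intervals of Nr1i3 and Nr1i2 themselves ran from -0.33 to 0.27 and from -0.65 to -0.05.

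Of 12 tested targets of the glucocorticoid receptor, 9 (75%) were higher and 0 lower in DOX, against 13.5% and 14% of all genes. Their median log2 fold change was 1.01, while Nr3c1 stood at 0.27. Klf9, a transcription factor also listed among thyroid hormone targets, had 206, 185 and 208 CPM in DOX livers, against 75.1, 64.9 and 76.8 CPM in PBS livers (log2 fold change 1.47, adjusted p = 3.68e-05). The clock gene Per1 and the kinase gene Sgk1 had log2 fold changes of 1.002 and 1.47 (adjusted p = 0.00013 and 0.000177). The count of higher genes was 7 to 9 when any 1 library was left out.

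The remaining lists had calls in both directions or few calls, and each share is read against the 13.5% of all genes called higher and the 14% called lower. Of 10 FXR and SHP targets, 4 (40%) were higher and 2 (20%) lower, with a median of 0.10. The list was not split by whether FXR and SHP raise or lower a gene. Its counts and median therefore give no direction of receptor activity. In that list Slc51b, a bile acid exporter subunit, had a log2 fold change of 1.44 (adjusted p = 0.000257), Slc10a1, the main bile acid importer, 0.78 (0.00229), and Abcb4, the phospholipid exporter of bile, -0.60 (0.00559). Of 11 LXR targets, 3 (27.3%) were higher and 1 (9.09%) lower, with a median of 0.04. Mlxipl, which encodes the sugar-responsive factor ChREBP, had a log2 fold change of 0.92 (adjusted p = 0.000987), Mylip 0.56 (0.00313) and the cholesterol exporter gene Abcg1 -0.42 (0.0108). Lower LXR targets numbered 3 without PBS 2 and with DESeq2, 2 without DOX 2 and without the filter on low counts, and 4 with library size alone.

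Of 6 thyroid hormone targets, 1 (16.7%) was higher and 2 (33.3%) were lower, with a median of 0.10. Dio1, the deiodinase that makes active thyroid hormone, had 1.22, 1.74 and 0.667 CPM in DOX livers, against 5.07, 7.96 and 8.92 CPM in PBS livers (log2 fold change -2.59, adjusted p = 0.000572). Me1, malic enzyme, had a log2 fold change of -1.02 (adjusted p = 0.0244), a call lost without DOX 1 (0.076), PBS 1 (0.0553) or PBS 3 (0.0794), or without the filter on low counts (0.103). Of 6 tested retinoic acid targets, 2 (33.3%) were higher and 1 (16.7%) lower, with a median of -0.08. Cyp26a1, which degrades retinoic acid, had 74.6, 53.9 and 89.6 CPM in DOX livers, against 12.2, 7.16 and 10.6 CPM in PBS livers (log2 fold change 2.86, adjusted p = 0.000232). The related Cyp26b1 had a log2 fold change of 1.40 (adjusted p = 0.0337), a call lost without DOX 1 (0.0677), PBS 1 (0.121), PBS 2 (0.122) or PBS 3 (0.0756), or without the filter on low counts (0.134), and the value was 0.72 without DOX 1. Lrat, which stores vitamin A as ester and also marks stellate cells, had a log2 fold change of -0.74 (adjusted p = 0.0175), lost without PBS 1 (0.0591) or PBS 3 (0.0514).

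Of 10 HNF4-alpha targets, 2 (20%) were higher and 1 (10%) lower, with a median of 0.18, while Hnf4a stood at 0.42. Apoc3, an apolipoprotein, and F7, coagulation factor VII, had log2 fold changes of 0.51 and 0.35 (adjusted p = 0.0204 and 0.031). Each of these calls was lost when any of 4 libraries was left out. Apoc3 was lost without DOX 1, PBS 1, PBS 2 or PBS 3 (adjusted p up to 0.0822), and F7 without DOX 1, DOX 3, PBS 1 or PBS 2 (up to 0.130). With library size alone their adjusted p was 0.0726 and 0.168. Of 12 PGC1 and ERR-alpha targets, 3 (25%) were higher and 0 lower, against 13.5% and 14% of all genes, with a median of 0.19. Cox5b, a subunit of cytochrome oxidase, had a log2 fold change of 0.56 (adjusted p = 0.0105), the transcription factor gene Gabpa 0.40 (0.0161) and cytochrome c, Cycs, 0.34 (0.0403). Cox5b held its call with each library left out. Gabpa was lost without DOX 3, PBS 1 or PBS 2 (adjusted p up to 0.0648), and Cycs without DOX 1, DOX 3, PBS 1 or PBS 3 (up to 0.148). Both were also lost with library size alone (0.0915 for Gabpa and 0.261 for Cycs).

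**Figure D5:**
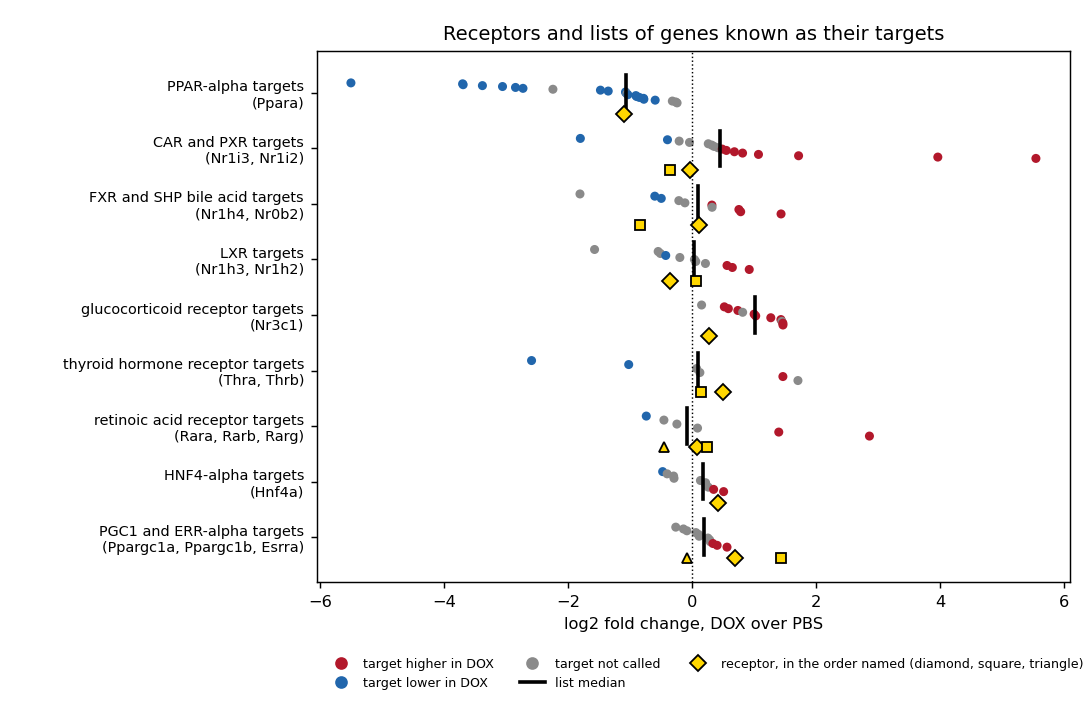
Each row is a list of genes known as targets of the receptors named in brackets, and each small point is the log2 fold change of DOX over PBS of a target, red if called higher, blue if called lower and grey if not called. Black bars are list medians, and yellow symbols under each row are the receptor genes themselves. Lists were chosen with earlier results of these data known. Ppara at -1.10 lies at the median of its targets, -1.07, while Nr1i3 at -0.03 and Nr1i2 at -0.35 lie below the median of theirs, 0.45.

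Receptors act through shared cofactors and beside other receptors. Of 18 coactivator and corepressor genes, 5 (27.8%) were higher and 1 (5.56%) lower, against 13.5% and 14% of all genes, with a median log2 fold change of -0.02. Prmt1, an arginine methyltransferase that serves as a coactivator, had a log2 fold change of 0.68 (adjusted p = 0.00395). Hdac3, the deacetylase of the NCoR corepressor complex, had 29.3, 29.5 and 26.8 CPM in DOX livers, against 40.7, 38.4 and 39.7 CPM in PBS livers (log2 fold change -0.47, adjusted p = 0.00556). Ncoa1, the coactivator SRC1, had a log2 fold change of 0.46 (adjusted p = 0.012), a call lost without PBS 2 (0.0598) and with library size alone (0.0599). Higher cofactor calls numbered 2 without DOX 3 or PBS 1, 3 without PBS 3, 1 without PBS 2 and 1 with library size alone. Of 9 other nuclear receptor genes tested, 1 was higher and 1 lower. These were Nr1d1, at 1.39, and Nr4a3, an immediate early gene, at -1.68 (adjusted p = 0.0205). Nr1d1 lost its call without DOX 1, DOX 3, PBS 1, PBS 2 or PBS 3 (adjusted p up to 0.130), and Nr4a3 without DOX 1, DOX 3, PBS 2 or PBS 3 (up to 0.0726) and had -2.42 without DOX 2. Of 16 core clock genes, which include Nr1d1 and Per1, 5 (31.2%) were higher and 1 (6.25%) lower, with a median of 0.28. Ciart, a clock repressor, had a log2 fold change of 1.94 (adjusted p = 0.000428) and Cry2 0.67 (0.00127).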

How the data were processed

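Liver RNA from 3 DOX and 3 PBS samples was sequenced. An RNeasy kit served for extraction and a SMARTER mRNA-Seq kit for library preparation (per the labels). The authors deposited whole-number counts per gene symbol, and FPKM values for the same libraries. Deposited counts divided by deposited FPKM gave the same gene length in every library (largest relative difference 1.08e-06), so each FPKM is the count over a fixed length and the library's own total. GRCm38, mm10 and hg38 are the builds named in the submitters' processing notes, which do not say what each was used for. How reads were aligned and counted, and with which strand setting and annotation, is not given in the sources used here. The counts of overlapping genes are therefore uncertain.

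From the counts, edgeR 4.0.16 (R 4.3.3) was run with filterByExpr (minimum count 10, minimum total 15), TMM scaling and a robust quasi-likelihood fit of DOX against PBS over all 6 libraries. P-values were adjusted by Benjamini-Hochberg over 14681 genes. Total counts per library were 40298256, 36374072 and 32476725 for DOX 1 to 3 and 40606190, 40592030 and 41921404 for PBS 1 to 3, and TMM factors were 0.938, 0.933 and 0.970 and 1.07, 1.08 and 1.02. The biological coefficient of variation was 0.155. CPM per kilobase is the TMM-scaled CPM over the length implied by the deposited values, and was used in place of FPKM so that levels share the scaling of the test. No pair of libraries within a group matched to within sampling noise (chi-square per degree of freedom 28.2 to 78.5), so none was taken as a copy of another; whether they are independent samples is not shown by this. Family shares were compared by two-sided exact permutation tests of 3 against 3. Intervals take no account of PCR duplicates. The script was tested on simulated data.

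Named genes were all 34 members, Bche, and up to 3 called genes of smallest p in each list. A gene that this rule names is not reported here. Members and lists were chosen with earlier results of these data known, as was the test. Gene positions and promoters are RefSeq's (GRCm38.p6), matched by symbol, and exon overlaps come from GENCODE. Alternatives were library size alone, RLE size factors, DESeq2 1.42.0, no filter on low counts, a replicate block, and each library left out in turn.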

Additional observations from a re-analysis of the deposited data

How the results depend on the processing

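Of 374 alternative values for the receptor and PGC1 genes, 310 kept direction and side of the threshold, 31 lost a call, 11 gained a call and 22 changed sign; every gene that changed sign was uncalled in both analyses, and the causes were not tested. Genes called higher and lower numbered 7 and 2 with RLE size factors and with the replicate block, 8 and 2 with DESeq2, 6 and 4 with no filter on low counts, and 2 and 6 with library size alone; with 1 library left out they ranged from 3 to 6 higher and from 1 to 3 lower. Over all genes, 1028 were higher and 3429 lower with library size alone, and with 1 library left out 1208 to 2440 were higher and 1305 to 2348 lower.

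With library size alone, calls were lost at log2 fold changes of 0.25 (Rxra), 0.34 (Thra), 0.24 (Nr2f6), 0.40 (Nr6a1) and 0.26 (Hnf4a), and gained at -0.62 (Rarg), -0.45 (Esr1), -0.51 (Nr1i2) and -0.47 (Nr2f2). Signs changed there at -0.095 (Pparg), -0.086 (Rara), -0.013 (Thrb), -0.10 (Nr1h2), -0.042 (Nr1h4), -0.087 (Nr2c1), -0.076 (Nr2f1), -0.059 (Nr4a1) and -0.15 (Hnf4g). All of these sit on a shift of -0.16 in the median of all genes; relative to it, Rxra stood at 0.41 and Hnf4a at 0.43. With no filter on low counts, Ppargc1b was lost at 1.43, Rarg and Nr1i2 were called at -0.47 and -0.36, and Hnf4g stood at -0.0013. DESeq2 called Ppargc1a at 0.69.

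The labels number the libraries 1 to 3 in both groups, but same-numbered libraries did not deviate together (correlations of 0.13, -0.12 and -0.17), so the numbers were not taken as pairs. With the replicate block as a term, Rxra (0.40) and Nr1h3 (-0.36) were no longer called, Ppargc1a (0.63) and Nr0b2 (-0.79) were called, and Nr2f1 stood at -0.023; 1633 genes were higher and 1849 lower in all.

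With 1 library left out, log2 fold changes ranged from 0.40 to 0.93 for Ppargc1a, 1.13 to 2.11 for Ppargc1b, 0.34 to 0.48 for Rxra, 0.42 to 0.59 for Thra, -0.42 to -0.30 for Nr1h3, -0.53 to -0.25 for Nr1i2, 0.32 to 0.47 for Nr2f6, 0.41 to 0.63 for Nr6a1, 0.36 to 0.52 for Hnf4a and -1.07 to -0.30 for Nr0b2. Among uncalled genes the range crossed 0 for Pparg (-0.053 to 0.14), Nr1h2 (-0.011 to 0.12), Nr1i3 (-0.22 to 0.093), Nr2f1 (-0.55 to 0.37), Nr4a1 (-0.058 to 0.24) and Hnf4g (-0.20 to 0.32). Hnf4g and Nr2f1 rest on few counts, which limits what can be said of them.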
